A study of Mus musculus with 6 samples.

Results

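The 41 genes described here encode the machinery that copies DNA in S phase. They were taken as a fixed list of gene symbols: origin recognition and licensing factors, the replicative helicase, polymerases and primase, the sliding clamp and its loader, single-strand binding and strand joining proteins, and enzymes of deoxynucleotide supply. All 41 were found among the 15964 genes that had a probe set with a single annotated symbol on the 3 chips of the series. Where a gene had several probe sets, the one ranked brightest on its chip stands for it, and its other probe sets with a value are given as well. Brightness is that of a probe set and not the amount of a transcript.

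Total RNA came from cells labelled spermatogonia, which are the dividing precursors of sperm, of mice 1 week old with the strain given as 129sv/c57Bl6. Null mice carried a knockout of Zfp145 (now Zbtb16, the zinc finger repressor PLZF needed for the upkeep of spermatogonial stem cells), and WT mice carried no alteration that the labels name. Each genotype was hybridised once to each of the Affymetrix chips U74Av2, U74Bv2 and U74Cv2, which gives 6 arrays and 1 array per genotype and chip. There are no replicates, so no difference below has a replicate check, an SD or a p-value, and the number of arrays limits the precision. The labels give neither the number of animals, nor the way the cells were isolated, nor the deleted part of the gene.

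The deposited intensities had the same trimmed mean on all arrays, between 500.1 and 500.3. Zbtb16 itself had 158.1 in Null and 770.2 in WT with its brighter U74Av2 probe set, and 510.8 in Null and 1156.8 in WT on U74Cv2. Whether these probes lie in the deleted part is not known here. The germ cell list (22 matched genes, 1 at or below the floor on both arrays) summed to 48779.4 in Null and 48459.9 in WT. In these sums 1 U74Cv2 probe set of Mov10l1 held 17240.1 in Null and 16376.6 in WT. Another probe set of Mov10l1 had a log2 ratio of Null over WT of -0.64. The Sertoli cell list (29 matched genes, none at the floor on both arrays) summed to 84297.1 in Null and 94464.4 in WT, so transcripts of somatic cells were measured beside those of germ cells. In such bulk RNA, fewer cells of a type and less RNA per cell cannot be told apart.

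Replication is prepared in G1, when the origin recognition complex, Cdc6 and Cdt1 load the Mcm2 to Mcm7 ring onto DNA. In S phase Cdc45 and other factors activate the ring as the moving helicase, primase and polymerase alpha start each strand, and polymerases epsilon and delta extend the leading and the lagging strand on the Pcna clamp. Many of these genes are induced at the entry into S phase by E2F transcription factors, and their transcripts are used as signs of cell division. Spermatogonia, Sertoli cells and other cells of the young testis divide at this age, so the genes mark no single cell type.

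Levels of the replication genes in Null and WT lay close together. A value was available for 40 genes, 39 of them above the floor on both arrays and Orc2 as a bound, with the floor set at the 40th percentile of each chip. Tyms, which encodes thymidylate synthase, read 43.9 in Null and 20.5 in WT with its only probe set and lay under the floor of U74Cv2 on both arrays. The median log2 ratio of Null over WT was 0.03 over the 40 genes and -0.01 over the 12435 genes of the series with a value. Ratios lay above 0 for 22 of the 40 (55%), beside 48.5% of all genes. None of the 40 was 2-fold different in either direction, where 1.42% of all genes were at least 2-fold higher and 1.64% at least 2-fold lower in Null. Rfc1 was the only member at least 1.5-fold higher, beside 5.32% of all genes. Pold1 and Orc2 were the members at least 1.5-fold lower, beside 6.35% of all genes.

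The ratios also lay in a narrow band. Of the 40 genes 26 (65%) stood within 0.2 of 0 on the log2 scale, beside 48.1% of all genes. Replication genes were bright, with a median level percentile of 86.2 against 66.5 over all genes, and bright probe sets vary less. Among genes at or above the 60th level percentile, 26 of 37 replication genes (70.3%) stood within 0.2, beside 53.0% of 9080 genes. Chips were not matched here. For 31 of the 41 members the brightest probe set was on U74Av2, the chip where bright probe sets varied least. The spread between probe sets of a same gene on a same chip served as a measure of technical error: on U74Av2 it was 0.38, 0.27 and 0.16 log2 units at low, middle and high level, and on U74Cv2 0.57, 0.49 and 0.32. Measured against this spread, which is set by chip and level, 30 of 40 members (75%) stood within 1 spread of 0, beside 65.1% of all genes. Rfc1, Pold1 and Pold2 were the 3 of 40 members (7.5%) whose ratio exceeded 2 times that spread, beside 9.37% of all genes.

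**Figure D1:**
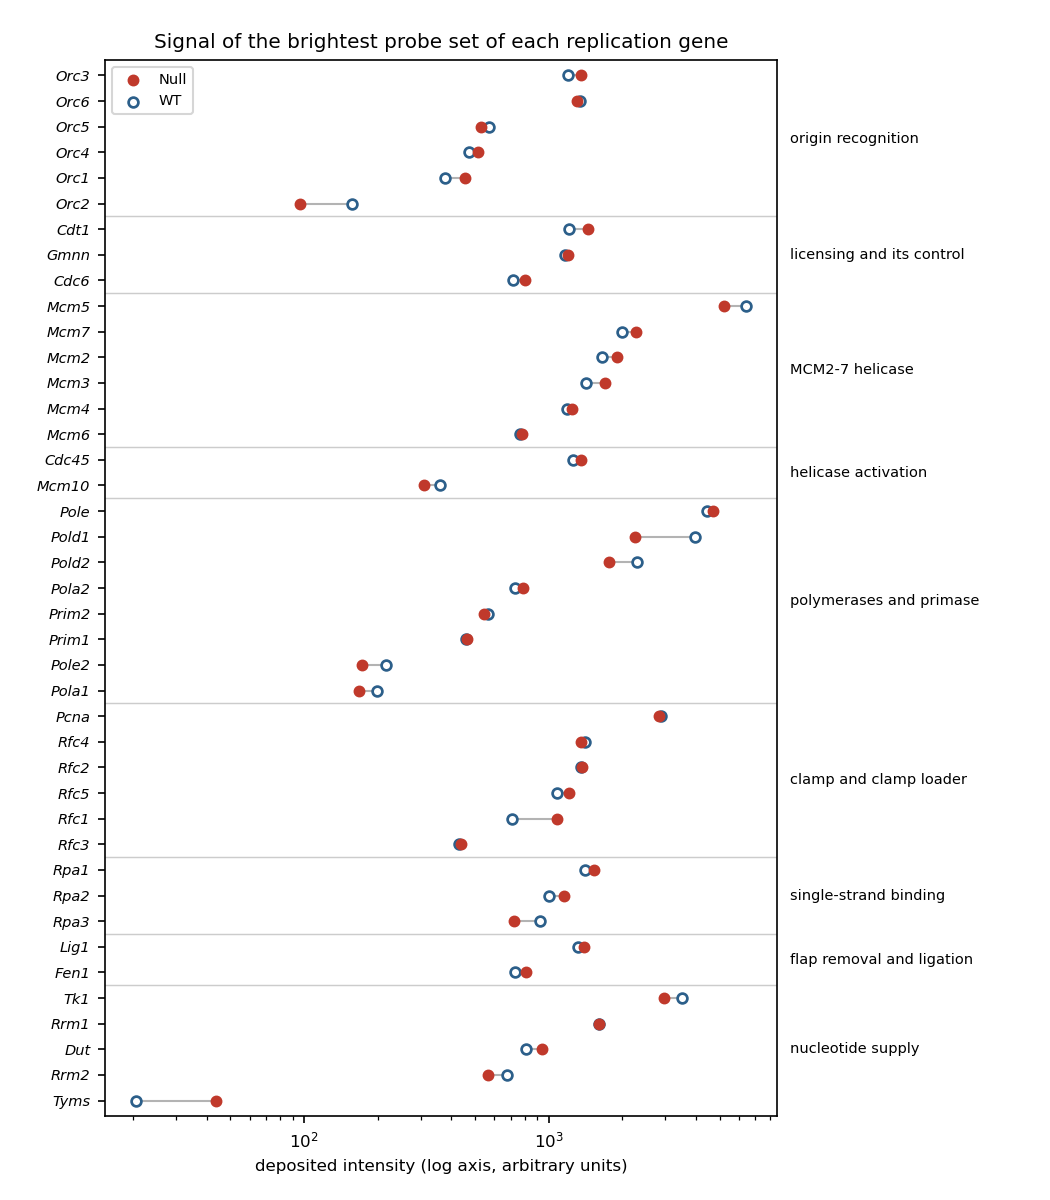
Deposited intensity (log axis, arbitrary units) of the brightest probe set of each of the 41 genes, in Null (filled red) and WT (open blue), 1 array each, grouped by role and sorted by level percentile. Most pairs of points nearly touch, and the widest gaps above the floor are those of Pold1, with 2257.7 in Null and 3975.4 in WT, and Rfc1, with 1082.6 in Null and 705.7 in WT.

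**Figure D2:**
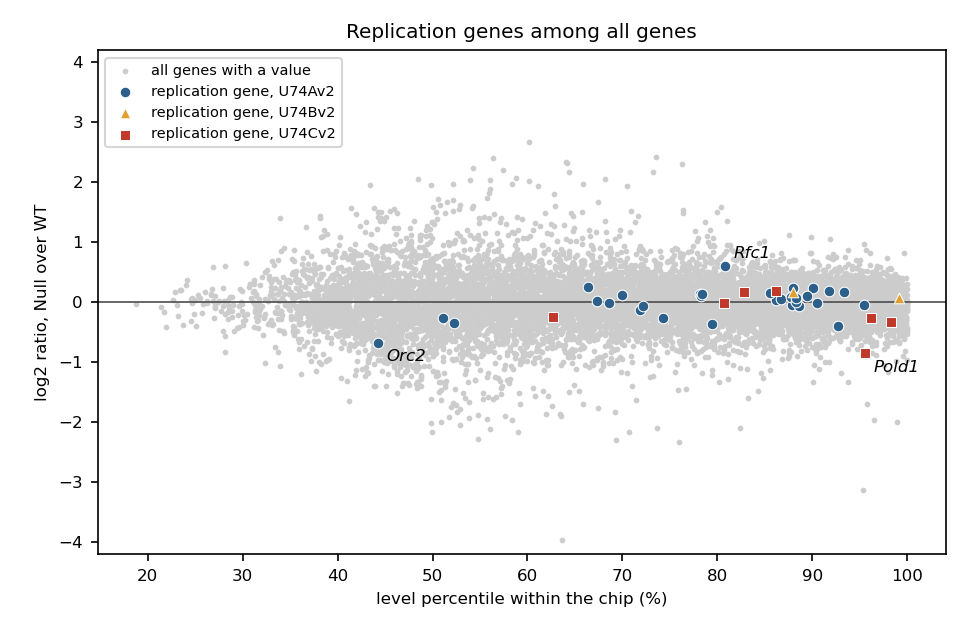
Log2 ratio of Null over WT (y axis) against the level percentile within the chip (x axis) for 12435 genes (grey) and the 40 replication genes with a value, coloured by chip. The replication genes sit mostly to the right, with a median level percentile of 86.2, and close to 0, with Rfc1, Pold1 and Orc2 as the members past 1.5-fold.

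Promoters were searched for the E2F motif because these genes are a textbook set of E2F targets. The windows came from RefSeq on GRCm38.p6 and run from 250 bases before to 50 bases after the annotated gene start. Of the 41 members 36 had an entry, and Mcm4, Gmnn, Prim2, Pole and Rfc2 had none. The E2F motif was searched as TTTGGCGC, TTTCCCGC, TTTCGCGC and TTTGCCGC on both strands, and these words can overlap each other. It was found in 13 of 36 members (36.1%), beside 3.97% of 12681 genes on the arrays and 2.6% of all 27025 genes with a promoter entry. The CCAAT box (CCAAT, both strands) was in 22 of 36 (61.1%), beside 42.4% of the genes on the arrays, and the GC box (GGGCGG, both strands) in 27 of 36 (75%), beside 60.1%. Promoters of the members had a median GC content of 59.5% and those of the genes on the arrays 59%.

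By role, the E2F motif was present in 4 of 5 genes of the helicase ring with an entry, in both licensing genes, in 3 of 6 polymerase genes, in 2 of 6 origin recognition genes, in Lig1 and in Rfc3. None of the 5 nucleotide supply genes and none of the 3 Rpa genes had it in this window. The 13 members with the motif had a median log2 ratio of 0.07, 8 of them above 0, and the 22 others with a value had a median of -0.01, 10 of them above 0. Both groups thus lay near 0. A match is a description of letters, not a bound site. The promoters of the 4 brightest members with the motif are shown, and these carry it in different arrangements. They run 5′ to 3′ on the strand of the gene, with the E2F words in capitals.

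Mcm5, chr8:75109259-75109558, plus strand: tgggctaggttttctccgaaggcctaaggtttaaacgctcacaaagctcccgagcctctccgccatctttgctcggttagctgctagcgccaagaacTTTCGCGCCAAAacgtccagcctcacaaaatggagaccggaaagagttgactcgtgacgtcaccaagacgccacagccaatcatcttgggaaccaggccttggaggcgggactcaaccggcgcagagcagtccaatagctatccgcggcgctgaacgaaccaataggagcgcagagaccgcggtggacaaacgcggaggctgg

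Pold1, chr7:44548766-44549065, minus strand: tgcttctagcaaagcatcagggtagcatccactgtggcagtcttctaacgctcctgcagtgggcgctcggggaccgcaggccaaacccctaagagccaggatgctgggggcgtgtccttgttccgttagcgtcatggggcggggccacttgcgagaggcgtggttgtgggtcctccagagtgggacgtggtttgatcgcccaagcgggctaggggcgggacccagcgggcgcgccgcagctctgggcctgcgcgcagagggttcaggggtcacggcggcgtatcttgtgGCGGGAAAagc

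Mcm7, chr5:138171834-138172133, minus strand: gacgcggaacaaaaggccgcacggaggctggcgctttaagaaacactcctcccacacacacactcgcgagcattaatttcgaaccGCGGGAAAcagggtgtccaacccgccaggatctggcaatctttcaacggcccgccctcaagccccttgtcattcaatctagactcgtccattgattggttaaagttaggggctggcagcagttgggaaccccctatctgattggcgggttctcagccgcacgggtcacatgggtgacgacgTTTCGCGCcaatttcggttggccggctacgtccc

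Mcm3, chr1:20820263-20820562, minus strand: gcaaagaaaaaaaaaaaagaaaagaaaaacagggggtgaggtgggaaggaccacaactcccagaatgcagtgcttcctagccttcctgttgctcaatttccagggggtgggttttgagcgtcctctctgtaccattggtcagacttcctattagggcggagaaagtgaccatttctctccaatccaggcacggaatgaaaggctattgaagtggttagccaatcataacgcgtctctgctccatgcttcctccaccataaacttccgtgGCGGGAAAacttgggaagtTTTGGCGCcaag

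In Mcm5 a pair of words on opposite strands overlaps, from position -153 relative to the annotated start, and in Pold1 the single word begins at position 39. Mcm7 holds a pair of words apart from each other, the first at position -165, and in Mcm3 both lie after the start, the first at position 19. The log2 ratios of these genes were -0.33 for Mcm5 and -0.84 for Pold1, both on U74Cv2, and 0.18 for Mcm7 and 0.24 for Mcm3, both on U74Av2. These members thus stood on both sides of 0, and those below 0 were measured on U74Cv2. On U74Av2 Pold1 stood at 0.04, while Mcm5 stayed below 0 at -0.09. Of all 13 members with the motif 8 were above 0. Pola1 and Pole2, both with the motif, stood below 0 on U74Av2, at -0.26 and -0.34.

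The origin recognition complex marks the sites where the helicase is loaded. Orc3, its brightest member, read 1352.9 in Null and 1200.1 in WT on U74Bv2, a log2 ratio of 0.17. Orc6 read 1309.9 in Null and 1342.2 in WT, a log2 ratio of -0.04. Neither ratio reached the spread between probe sets at that level. On U74Cv2 Orc3 stood at -0.00 in 1 probe set and was at least 1.16-fold higher in Null in another, and Orc6 was at least 1.13-fold lower in Null. Orc1, the subunit whose amount changes most through the cell cycle, stood at 0.26, with 454.1 in Null and 377.8 in WT, against a spread of 0.27. Orc4 stood at 0.12 and Orc5 at -0.13. The U74Cv2 probe sets of Orc4 disagreed with each other, since 1 stood at -0.65 and the other was at least 1.27-fold higher in Null. Orc2 was dim, at 96.1 in Null and 156.6 in WT, and with the Null array at the floor of 98.3 it was at least 1.59-fold lower in Null. The median of the 6 subunits was 0.04, with 3 ratios above 0 and 3 below.

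Licensing requires Cdc6, an ATPase, and Cdt1, the escort of the helicase, while geminin (Gmnn) holds Cdt1 inactive outside G1. All 3 had ratios above 0, with a median of 0.15. Cdt1 read 1450.6 in Null and 1213.9 in WT, a log2 ratio of 0.25. A further U74Av2 probe set of Cdt1 read 747.3 in Null and 638.9 in WT, a log2 ratio of 0.22, so the 2 measurements differed by 0.03. That further probe set has the suffix f, which marks probes shared within a gene family. Cdc6 read 798.5 in Null and 717.1 in WT, a log2 ratio of 0.15. Gmnn was almost level, at 1204.8 in Null and 1169.2 in WT, a log2 ratio of 0.03. Cdt1 alone of the 3 exceeded the spread of its level, which was 0.16, and did so by less than a factor of 2.

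Mcm2 to Mcm7 form the ring-shaped helicase and had a median ratio of 0.12, with 4 of 6 above 0. Mcm2 read 1904.4 in Null and 1657.2 in WT, a log2 ratio of 0.19. Mcm3 read 1697 in Null and 1427.7 in WT, a log2 ratio of 0.24, and a further probe set gave 0.33 from 1191.4 in Null and 942 in WT. Mcm7 read 2277.9 in Null and 2002.2 in WT, a log2 ratio of 0.18. Mcm2 and Mcm7 stood just above the spread of 0.16 for bright U74Av2 probe sets, and both Mcm3 probe sets stood further above it. Mcm4 read 1245.6 in Null and 1193.3 in WT, a log2 ratio of 0.05. Mcm6 stood at -0.01 on U74Cv2, with 775.7 in Null and 767 in WT, and at -0.14 in a further U74Cv2 probe set, while the U74Av2 probe set of Mcm6 lay under the floor on both arrays. Mcm5 had the lowest ratio of the 6: its U74Cv2 probe set read 5189.6 in Null and 6438.4 in WT, a log2 ratio of -0.33, and its U74Av2 probe set 3565.5 in Null and 3784.6 in WT, a log2 ratio of -0.09. Mcm5 thus lay below 0 on both chips, near the spread of 0.32 on U74Cv2 and within that of 0.16 on U74Av2. A dim U74Av2 probe set of Mcm5, at the floor in Null, stood at -0.01 as a bound.

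Mcm10 and Cdc45 turn the loaded ring into a working helicase, Cdc45 as a part of it. Cdc45 read 1356 in Null and 1263.8 in WT on U74Av2, a log2 ratio of 0.09, but 266.2 in Null and 372.5 in WT on U74Cv2, a log2 ratio of -0.51. Mcm10 read 308.8 in Null and 360.9 in WT on U74Cv2, a log2 ratio of -0.25, and 267.6 in Null and 241.4 in WT on U74Av2, a log2 ratio of 0.14. A further U74Cv2 probe set of Mcm10 was at least 1.66-fold lower in Null, with 123.8 in Null and 205.5 in WT. For both genes the sign thus depended on the probe set.

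The polymerase and primase genes had a median of -0.16 over 8 genes, with 6 ratios below 0. Pole, the catalytic subunit of polymerase epsilon and the brightest of all members at the 99.1st level percentile, read 4682.1 in Null and 4450.8 in WT on U74Bv2, a log2 ratio of 0.07. Pold1, the catalytic subunit of polymerase delta, read 2257.7 in Null and 3975.4 in WT on U74Cv2, a log2 ratio of -0.84, or 1.79-fold lower. That probe set has the suffix f, which marks probes shared within a gene family. A plain U74Av2 probe set of Pold1 read 1903.4 in Null and 1843.5 in WT, a log2 ratio of 0.04, so the difference did not appear there. Pold2, the partner of Pold1, read 1758.4 in Null and 2303.8 in WT, a log2 ratio of -0.40, against a spread of 0.16, from a single probe set whose suffix r marks relaxed probe selection. Pola1 and Pole2 were dim and stood at -0.26 and -0.34, both under the spread of 0.38 at their level. The B subunit gene of polymerase alpha, Pola2, stood at 0.10, and a dim further probe set of it was at least 1.75-fold higher in Null, with 173.1 in Null and 93.7 in WT. The primase genes Prim1 and Prim2 stood at -0.01 and -0.06. The median of the polymerase genes was -0.03 without U74Cv2 and -0.01 with probe sets of plain design, so it rested on few probe sets.

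Pcna, the sliding clamp and a common marker of dividing cells, read 2815.4 in Null and 2889.7 in WT, a log2 ratio of -0.05. Its loader consists of the large subunit Rfc1 and the small subunits Rfc2 to Rfc5. Rfc1 read 1082.6 in Null and 705.7 in WT, a log2 ratio of 0.61, or 1.52-fold higher, and it stayed at 0.59 to 0.62 over the alternatives of processing. The small subunits did not share this: Rfc2 stood at 0.00, Rfc3 at 0.02, Rfc4 at -0.06 and Rfc5 at 0.16. Rfc4 read 1352.7 in Null and 1405 in WT, and Rfc5 1216.1 in Null and 1083.3 in WT. A further Rfc1 probe set read 9.6 in Null and 58.2 in WT, below the floor on both arrays, so the Rfc1 ratio rests on 1 probe set.

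Replication protein A coats single-stranded DNA. Rpa1, its large subunit, read 1539.3 in Null and 1415.1 in WT on U74Av2, a log2 ratio of 0.11, and stood at 0.26 in a dim U74Cv2 probe set. Rpa2 read 1159.8 in Null and 1003.9 in WT on U74Cv2, a log2 ratio of 0.18, and a U74Av2 probe set gave 0.21, so the chips were alike here. Rpa3, the smallest subunit, went the other way, at 722.5 in Null and 921.1 in WT, a log2 ratio of -0.36 against a spread of 0.27. Fen1, the nuclease that removes primer flaps, read 805.8 in Null and 727.4 in WT, a log2 ratio of 0.14. Lig1, the ligase that seals the nicks, read 1396.7 in Null and 1321.4 in WT, a log2 ratio of 0.07. Both strand joining genes lay within the spread of their level.

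Nucleotide supply genes had a median of -0.14 over the 4 with a value, 3 of them below 0. This median ran to -0.25 with the mean over probe sets, -0.08 without U74Cv2 and 0.03 with probe sets of plain design, so its sign depended on the choice of probe sets. Rrm1, the large subunit of ribonucleotide reductase, was equal on U74Av2, at 1612.9 in Null and 1613.6 in WT. A dim U74Cv2 probe set of Rrm1 read 132 in Null and 280.3 in WT, a log2 ratio of -1.11, the only measured probe set of any member with a 2-fold difference. Rrm2, the small subunit made in S phase, read 566.3 in Null and 674.3 in WT, a log2 ratio of -0.26 against a spread of 0.27. Tk1, the thymidine salvage kinase, read 2962.1 in Null and 3501.4 in WT on U74Cv2, a log2 ratio of -0.26, and a further U74Cv2 probe set gave -0.52. On U74Av2 Tk1 read 959.3 in Null and 909.3 in WT, a log2 ratio of 0.07, so its sign changed with the chip. Dut, the dUTPase that keeps uracil out of DNA, read 935.7 in Null and 811.7 in WT on U74Cv2, a log2 ratio of 0.18, and stood at -0.15 in a dim U74Av2 probe set.

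**Figure D3:**
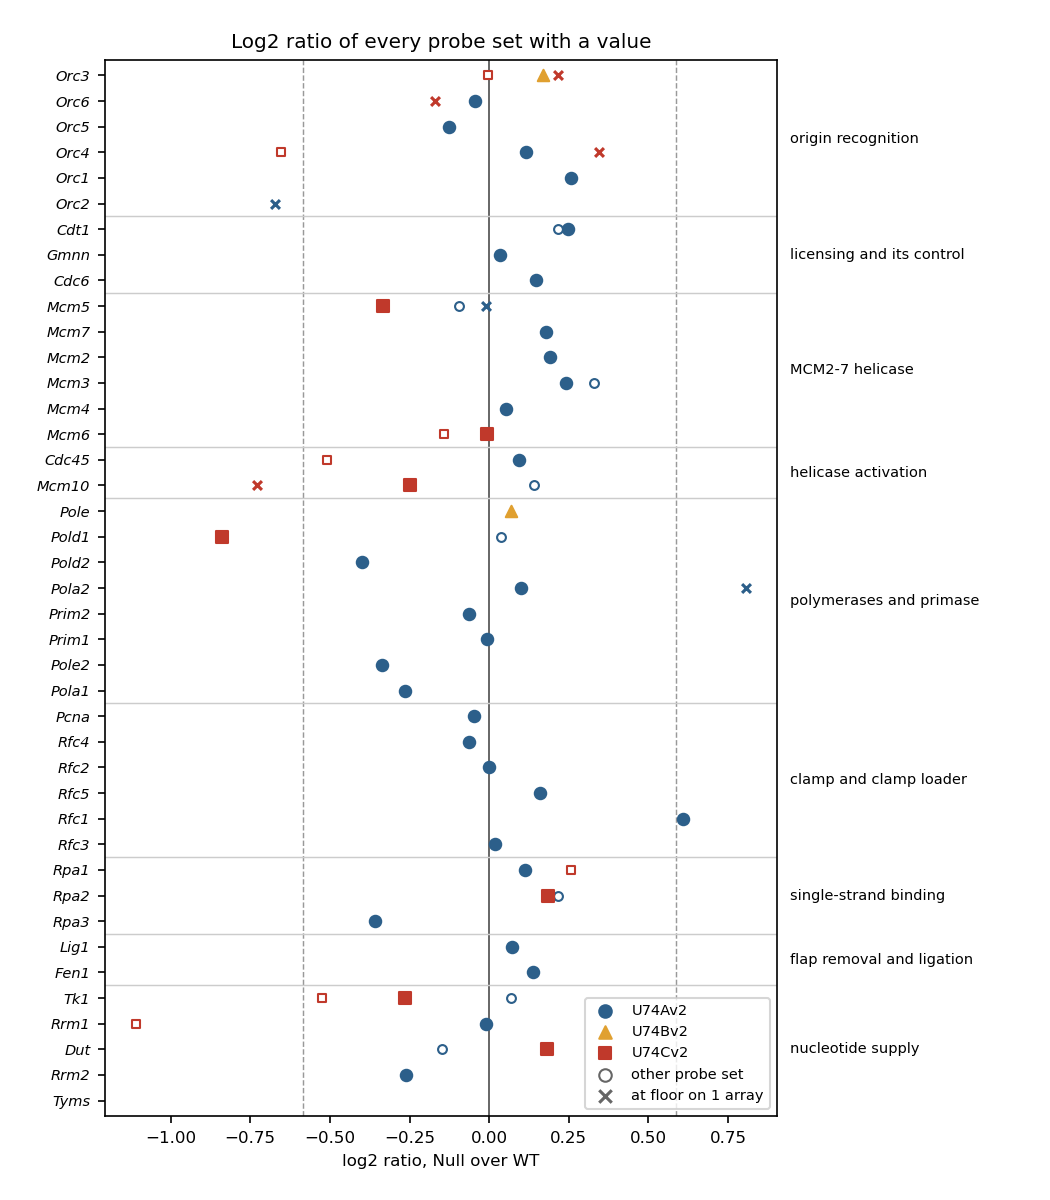
Log2 ratio of Null over WT (x axis) of all 61 probe sets of the members with a value, by gene, role and chip. Filled symbols are the probe sets that stand for the gene, open ones the others, crosses those at the floor on 1 array, and dashed lines mark 1.5-fold. Most U74Cv2 symbols lie left of 0, among them Rrm1 at -1.11 and Pold1 at -0.84.

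The chip moved with the direction of the ratios. The members have 75 probe sets, of which 54 were above the floor on both arrays, 7 on 1 array and 14 on neither. On U74Cv2 13 of 18 member probe sets with a value were below 0, with a median of -0.21, beside 50.4% of all annotated probe sets of that chip. On U74Av2 16 of 41 were below 0, with a median of 0.05, beside 51.5% of all annotated probe sets. On U74Cv2 the Null array was at least 1.5-fold lower for 4 of the 18, beside 13.2% of its probe sets, and on U74Av2 for 1 of the 41, beside 4.01%. The 4 belonged to Rrm1, Pold1, Orc4 and, as a bound, Mcm10. In the other direction, none of the 18 on U74Cv2 had a value at least 1.5-fold higher in Null, beside 12.9% of its probe sets. On U74Av2 2 of the 41 had, beside 3.35%, namely Rfc1 and, as a bound, Pola2. Among the 18, probe sets of Orc3 and Orc4 were at least 1.16-fold and 1.27-fold higher, and 1 of Orc6 at least 1.13-fold lower. As bounds, these may or may not lie past 1.5-fold.

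Measured above the floor on both arrays of both of these chips were 10 members. Their ratio was lower on U74Cv2 than on U74Av2 for 8 of the 10, with a median difference of -0.36, while among 992 such genes 52.0% were lower on U74Cv2 and the median difference was -0.02. The size of the disagreement was similar, since the median absolute difference was 0.36 for the members and 0.32 for all such genes. The ratio had the same sign on both chips for 4 of the 10 members, beside 53.4% of the 992 genes. Rrm1 stood at -1.11 on U74Cv2 and -0.01 on U74Av2, Pold1 at -0.84 and 0.04, and Orc4 at -0.65 and 0.12. Rpa2 hardly differed, at 0.18 on U74Cv2 and 0.21 on U74Av2, and Rpa1 and Dut were higher on U74Cv2. With 1 array per genotype on each chip, probe set, hybridisation and RNA sample cannot be told apart here.

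**Figure D4:**
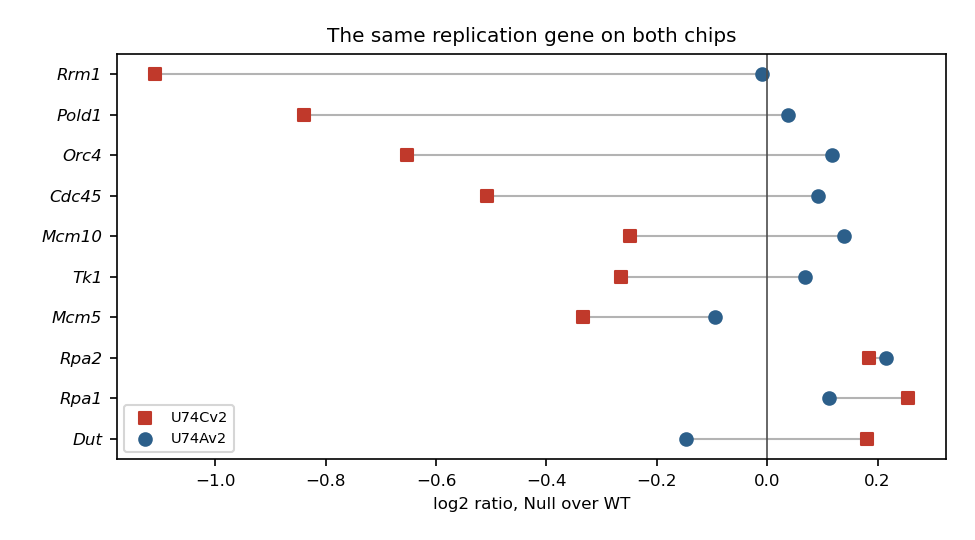
Log2 ratio of Null over WT (x axis) of the 10 members above the floor on both arrays of U74Cv2 (squares) and U74Av2 (circles), by the brightest such probe set of each chip. The square lies left of the circle for 8 of the 10 genes, by 1.10 for Rrm1.

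Other genes of S phase had similar medians. Of 37 matched further replication factors, such as the kinase subunits that fire origins, the GINS complex and chromatin assembly factors, 35 had a value, with a median of -0.02, 17 above 0, 3 at least 1.5-fold higher and 3 at least 1.5-fold lower. Of all genes 48.5% were above 0, 5.32% at least 1.5-fold higher and 6.35% at least 1.5-fold lower. Dscc1, a subunit of an alternative clamp loader, read 448.5 in Null and 226.6 in WT on U74Cv2, a log2 ratio of 0.96. Mcm8, a relative of the helicase subunits, read 187.2 in Null and 328 in WT on U74Cv2, a log2 ratio of -0.83. These opposite ratios came from U74Cv2 probe sets of low to middle level, where the spread was 0.57 and 0.49. Pold4, the small subunit of polymerase delta, was at least 1.96-fold lower in Null, with 89.8 in Null and 193 in WT. Supt16, a subunit of the histone chaperone FACT, was at least 2.38-fold higher in Null, with 300.3 in Null and 30.3 in WT.

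The 21 measured genes of S phase cyclins, E2F and RB had a median of 0.07, with 13 above 0 and none past 1.5-fold. Their brightest were Tfdp2, a partner of E2F proteins, at 0.11, with a mean of 0.35 in its other probe sets, and Fzr1, an activator of the anaphase-promoting complex, at -0.20, with 0.51 in another probe set. Further nucleotide synthesis genes had a median of 0.04 over 22, with none past 1.5-fold, Nme2, a nucleoside diphosphate kinase, at -0.17 and Gmps, GMP synthase, at 0.22, with -0.24 in another probe set. Mitosis genes had a median of 0.06 over 43, with 29 above 0. Of these Ncaph, a condensin subunit, stood at 0.65 and the spindle motor Kif11 was at least 3.68-fold lower on U74Cv2, but their other probe sets gave -0.03 and 0.08. Beside these lists, 48.5% of all genes were above 0, 5.32% at least 1.5-fold higher and 6.35% at least 1.5-fold lower.

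Cell type markers stood beside these values as follows. The germ cell list had a median of 0.06 over 21 genes with 12 above 0. Its members past 2-fold were Bcl6b at 1.16, Sall4 at -1.32, the targeted gene Zbtb16 at -1.20 and, as a bound, Pou5f1 at -1.19. Of all genes 48.5% were above 0, 1.42% at least 2-fold higher and 1.64% at least 2-fold lower. Each of these values came from U74Cv2, where 12.9% of probe sets were at least 1.5-fold higher and 13.2% at least 1.5-fold lower. Other probe sets of Sall4 averaged 0.45 and another of Pou5f1 gave 0.17, so the ratios of Sall4 and Pou5f1 depended on the probe set. The Sertoli list had a median of -0.12 over 29 genes with 20 below 0, among them Rhox5 at -1.04 and Tsx at -1.02. Cst12 of the same list stood at 0.59 in its brightest probe set and at -0.15 in another. The Leydig list had a median of -0.15 over 10 genes, with sums of 11568.6 in Null and 11583.7 in WT, and Hsd17b3 at 1.20, Thbs2 at 1.06 and Cyp11a1 at -0.81. Markers of peritubular, endothelial and blood cells had a median of -0.15 over 22 genes, with sums of 38293.9 in Null and 47218.2 in WT, and the globin gene Hba-a1 at -0.72. In these sums Laptm5 held 10423 in Null and 13972.2 in WT, and its other probe sets averaged -0.10. Mylk held 7879.2 in Null and 10125.1 in WT, and its other probe sets averaged -0.15. The replication genes summed to 53316 in Null and 55119.3 in WT over the 41 probe sets. Of these sums the U74Cv2 probe set of Pold1 held 2257.7 in Null and 3975.4 in WT, a difference that its U74Av2 probe set did not show. The median of the replication genes lay between those of the somatic lists and that of the mitosis list. The part of cell makeup in their ratios was not tested.

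**Figure D5:**
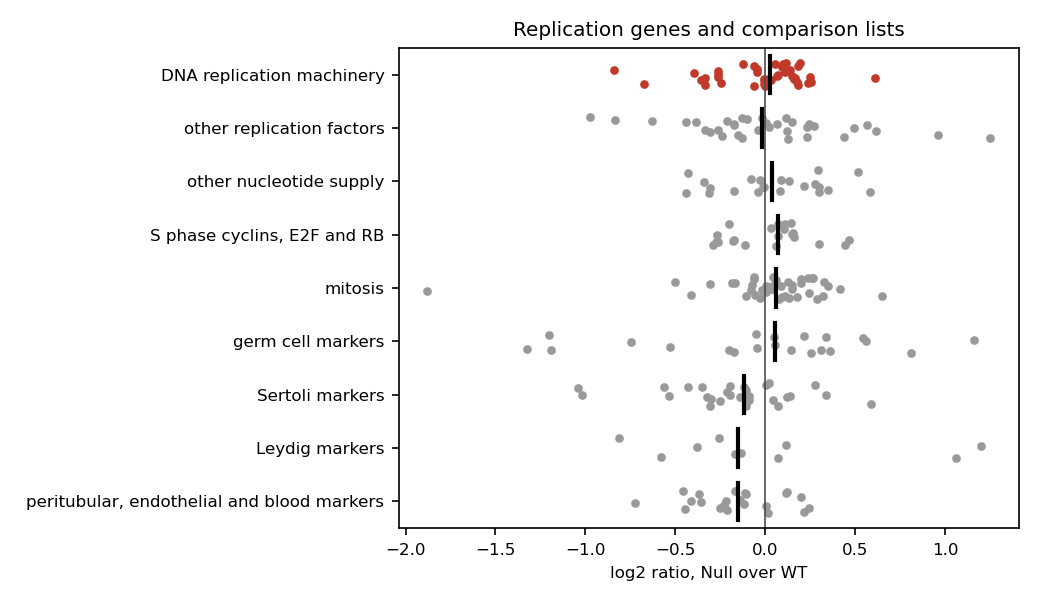
Log2 ratio of Null over WT (x axis) of the replication genes (red) and of the genes of each comparison list (grey), 1 point per gene with a value, with the median as a black bar. The replication genes have a median of 0.03 and span -0.84 to 0.61, and the list medians run between -0.15 and 0.07.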

How the data were processed

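The files hold linear intensities per probe set as deposited by the authors, scaled array by array. The software behind them is not given in the sources used here. Probe sets were named through GEO's platform annotation and RefSeq symbols (GRCm38.p6), and only those with a single symbol were used: 10833 on U74Av2, 10581 on U74Bv2 and 7717 on U74Cv2. On each chip 66 control probe sets were set aside, Null was scaled to WT by the median ratio of the brighter part of the probe sets (log2 shifts of 0.01, 0.00 and 0.02), and values were raised to a floor at the 40th percentile (98.3, 165 and 124). Intensities are quoted as deposited, before this scaling. A ratio with 1 array at the floor is a bound. Probe sets of plain design have no suffix letter. Besides Pold1 and Pold2, the probe sets that stand for Mcm5, Mcm6, Tk1 and Tyms have the suffix r, that of Rpa2 the suffix i and that of Mcm3 the suffix s.

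Level percentiles rank the mean rank of both arrays within a chip, and error bins break at the 60th and 80th. The spread was taken from pairs of probe sets that share a gene and a chip: the median size of the gap between their log2 ratios, scaled to an SD of 1 probe set. It covers neither animals nor hybridisations. All 41 members are given, with intensities for those at least 1.5-fold different, those with any probe set 2-fold different and the 2 brightest of each role. Of each list up to 4 genes past 1.5-fold, or else its 2 brightest, are named. Intensities of other members and the values of Mov10l1, Laptm5 and Mylk were added after the values were seen. Members and lists were chosen with earlier results of these data known. The alternatives are listed in the closing section. The work used pandas 2.3.3, numpy 2.4.6, statsmodels 0.14.6 (loess), scipy 1.17.1 and matplotlib 3.10.9 under Python 3.11.15, and the calculation was tested on simulated data.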

Additional observations from a re-analysis of the deposited data

How the results depend on the processing

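The alternatives were no further scaling, quantile normalization, loess on level, a floor at percentile 20 or 60, omission of the floor, the mean over measured probe sets, probe sets of plain design, U74Av2 alone and, chosen after the data were seen, U74Av2 and U74Bv2 without U74Cv2. Over these the median log2 ratio of the members ran between -0.00 and 0.05 and the number above 0 between 20 and 24. The number at least 1.5-fold lower was 1 instead of 2 with a floor at percentile 60, with the mean over probe sets, with plain design, with U74Av2 alone and without U74Cv2. Without a floor 2 members were at least 1.5-fold higher and 1, Tyms, at least 2-fold higher, since its values under the floor then count. No member was at least 2-fold lower under any of them. Pold1 turned to 0.037 with plain design, with U74Av2 alone and without U74Cv2, because its U74Av2 probe set then stood for it, and with the mean over probe sets Pold1 stood at -0.40 and Rrm1 at -0.56. No paired analysis was possible because each genotype has 1 array per chip. The spread between probe sets is no limit of detection for a difference between genotypes, since it covers neither animals nor hybridisations. With 1 array each, a ratio above the spread has no replicate check either.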

Other observations

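The share of promoters with an E2F word differed between the comparison lists, searched in the same window. It was 11 of 31 (35.5%) for the further replication factors and 7 of 17 (41.2%) for the S phase cyclin, E2F and RB genes. It was 3 of 38 (7.89%) for the mitosis genes and 1 of 23 (4.35%) for the further nucleotide synthesis genes. Germ cell markers had it in 1 of 22 (4.55%) and Sertoli markers in 1 of 21 (4.76%), and no Leydig marker or peritubular, endothelial or blood marker had it. These are descriptions of sequence windows with no test.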
